A study of Mus musculus with 31 samples.

Results

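A set of 9 genes was followed across all libraries: Slc38a6, Noct, Wdr31, Slco1a6, Kif24, Sgip1, Snhg14, Gm14149 and Gm13632. These members had been chosen from the measured values, as genes raised when the Tet1CD virus and vitamin C (Vc) were combined, and because their transcripts hold stretches of identical sequence. They are 9 of 29267 genes in the files, and all 9 passed the filter on low counts, with and without the Tet1CD Vc libraries. The RNA came from mouse cells of strain 129/OG2 under reprogramming with OKSM (Oct4, Klf4, Sox2 and Myc). The cells carried a Tet1CD virus or a Flag virus, were kept with Vc, DKG or DMSO, and were collected at day 8 or day 3. Each of these 12 combinations had 2 libraries, numbered 0824 and 0826, and every such group had received OKSM. Embryonic stem cells (ESC, libraries 0819 and 0822, passages 19 and 17) and mouse embryonic fibroblasts of passage 2 (MEF, libraries 0824 and 0826) were measured beside them, and 3 single libraries of MEF kept for 3 days with a compound complete the 31. The labels spell out neither Tet1CD nor DKG, give no dose, and do not state that paired libraries of a group stem from cultures grown apart. All p-values thus reflect how far these libraries scatter, and that scatter may be technical. Flag is taken as the control virus and DMSO as the vehicle.

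As background, Tet1 encodes an enzyme that oxidises 5-methylcytosine in DNA, and vitamin C is a known cofactor of enzymes of that class. Unrelated genes can hold near-identical sequence where copies of one interspersed repeat lie in them. In mice some repeat copies act as promoters or donate exons to the genes around them, and many are kept silent in fibroblasts by DNA methylation. Repeat families were not annotated in the sources used here, so the shared sequence is given no family name.

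No single 50-base stretch was found in all 9 members. Every run of 50 bases (a word, either strand) in the members' 64 annotated transcripts was compared. The largest number of members with one identical word was 6, and the members were instead linked in overlapping sets: 325 words occurred in at least 3 members each, and all 9 members held some of them. Of the 36 pairs of members 29 shared at least 1 word and 7 shared none. The stretch found in 6 members (Slc38a6, Noct, Wdr31, Kif24, Snhg14 and Gm14149) is 51 bases long, and it is shown as it stands in a transcript of each orientation, with capitals on a 30-base window that is identical in all 6. The coordinates are those of mm10.
Wdr31-206 (exon 10 of 10, minus strand, chr4:62449181-62449231): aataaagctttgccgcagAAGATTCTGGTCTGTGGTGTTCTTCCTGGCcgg
Kif24-204 (exon 2 of 2, minus strand, chr4:41455060-41455110): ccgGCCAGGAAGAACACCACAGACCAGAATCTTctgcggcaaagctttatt
Slco1a6 held a close copy of the window in its transcript Slco1a6-203, read opposite to the transcript, with 4 differences in capitals (G16T, T18C, T21C and C22T, counted from 1 at the 5′ end of the window).
Slco1a6-203 (exon 2 of 2, plus strand, chr6:142149254-142149283): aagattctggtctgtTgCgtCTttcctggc
Sgip1 and Gm13632 did not hold this window. They shared a 72-base stretch with Wdr31, Snhg14 and Gm14149, shown in both orientations with the CpG in capitals, since CpG is the main site of the methylation that Tet enzymes act on.
Gm13632-201 (exon 2 of 2, plus strand, chr2:70884192-70884263): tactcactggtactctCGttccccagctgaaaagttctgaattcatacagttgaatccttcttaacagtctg
Gm14149-201 (exon 1 of 4, plus strand, chr2:151205427-151205498): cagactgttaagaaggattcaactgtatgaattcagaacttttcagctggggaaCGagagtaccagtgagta
The 51-base stretch holds 2 CpG and the 72-base stretch 1.

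The words lay in only 10 of the members' 64 transcripts, and mostly not in the long coding transcript of the gene. Noct (ENSMUSG00000023087, chr3:51224447-51251644, plus strand) encodes Nocturnin, a circadian protein related to the CCR4 deadenylases. Its words lay in the 5′ UTR of its 2-exon transcript ENSMUST00000144826, which is 9797 bases long. This transcript begins with 181 bases that recur without a difference at bases 4916 to 5096, so that 4734 bases lie between the 2 copies. Slc38a6 (ENSMUSG00000044712, chr12:73286779-73354049, plus strand), of the SLC38 family of amino acid transporters, held them in the last of 5 exons of Slc38a6-208 and of a shorter transcript, where coding sequence passes into the 3′ UTR. In Wdr31 (ENSMUSG00000028391, chr4:62448653-62470896, minus strand), a WD-repeat protein gene, they lay in the last exon of the transcript Wdr31-206, which has no coding sequence.

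The other carrier transcripts of coding genes had no coding sequence either. Kif24 (ENSMUSG00000028438, chr4:41390745-41464887, minus strand), a kinesin that restrains formation of the primary cilium, held the words in Kif24-204, of 1151 bases, while its longest transcript has 5593. Slco1a6 (ENSMUSG00000079262, chr6:142085761-142208521, minus strand), of the organic anion transporters, held them in Slco1a6-203, of 458 bases. Sgip1 (ENSMUSG00000028524, chr4:102741297-102973628, plus strand), an adaptor protein of endocytosis, held them in exons 8 and 9 of Sgip1-212. Snhg14 (ENSMUSG00000100826, chr7:59307924-59975759, minus strand), a long non-coding RNA of the imprinted Snrpn to Ube3a region that hosts small nucleolar RNAs, held them in the last exon of Snhg14-201, which is 1 of its 15 transcripts. Gm14149 (ENSMUSG00000067352, chr2:151205195-151231614, plus strand) and Gm13632 (ENSMUSG00000085868, chr2:70877829-70884408, plus strand) are annotated as lincRNAs and have no role known here.

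The members fell into 2 orientations. Noct, Wdr31, Snhg14 and Gm14149 read the shared sequence one way and Slc38a6, Slco1a6, Kif24, Sgip1 and Gm13632 the other way, and 0 pairs conflicted. Shared bases were counted in the gene of a pair that comes later in the alphabet. Noct and Slc38a6 shared the most, 2957 bases counted in Slc38a6 on opposite strands, and Noct and Kif24 shared 623 counted in Noct. Neither the kit's name nor any note tells the strand of the reads, so reads from such stretches cannot be assigned to 1 member with certainty. The deposited estimate was a fractional number in 30 or 31 of the 31 libraries for every member. Of all gene by library estimates 17.2% were fractional, but these include unexpressed genes at 0, which cannot be fractional. How much of a level is split between genes was not measured, so all levels of the members are uncertain by an unknown amount.

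**Figure D1:**
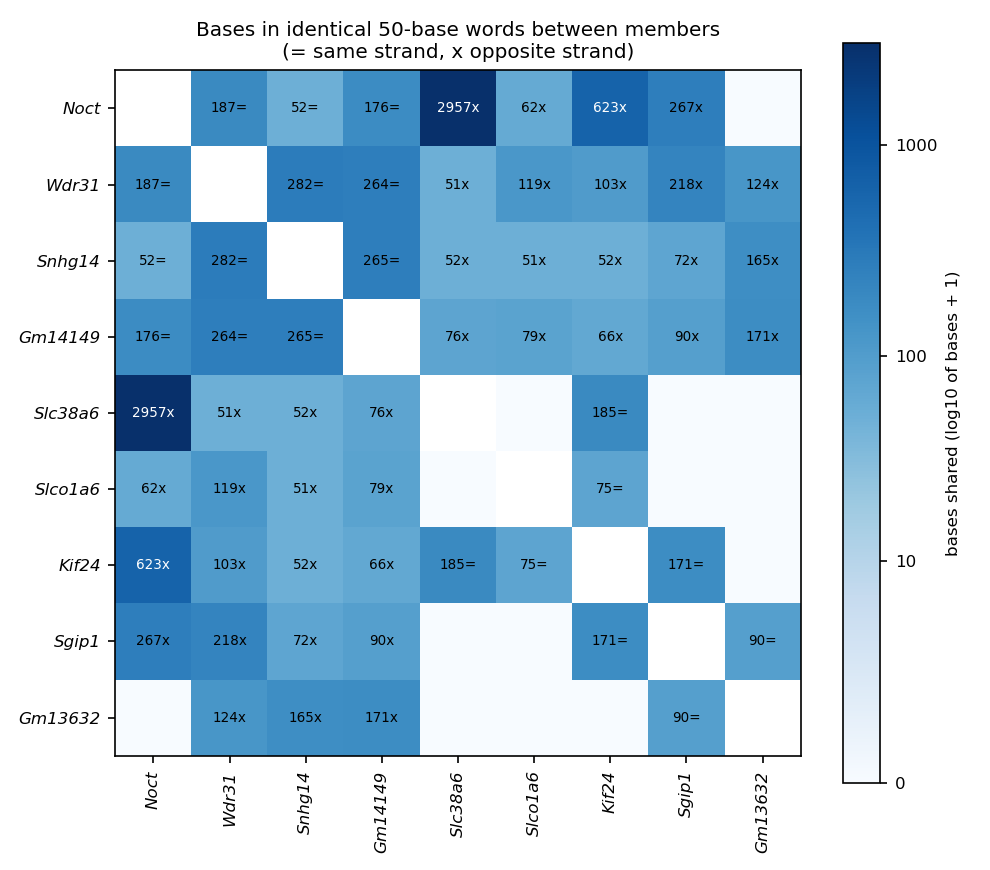
Bases in identical 50-base words between each pair of members, coloured on a log10 scale, with = for the same strand and x for the opposite strand. Empty cells share none. Each value was counted in the gene of the pair that comes later in the alphabet and is shown in both cells. The first 4 genes read the sequence one way and the last 5 the other way, and the pair with the most is Noct and Slc38a6 with 2957 bases.

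Of the 8 members with a RefSeq promoter (GRCm38.p6, 250 bases before to 50 after the start), only Gm14149 held such words in it. That is 12.5%, against 0.0791% of all 32851 promoters. The words were taken from the members' own transcripts, which favours the members in advance, so nothing is read from these shares. The Gm14149 promoter is printed because the shared sequence there stands at the start of the gene. Capitals mark the bases in the words.
Gm14149 promoter (plus strand, chr2:151204945-151205244): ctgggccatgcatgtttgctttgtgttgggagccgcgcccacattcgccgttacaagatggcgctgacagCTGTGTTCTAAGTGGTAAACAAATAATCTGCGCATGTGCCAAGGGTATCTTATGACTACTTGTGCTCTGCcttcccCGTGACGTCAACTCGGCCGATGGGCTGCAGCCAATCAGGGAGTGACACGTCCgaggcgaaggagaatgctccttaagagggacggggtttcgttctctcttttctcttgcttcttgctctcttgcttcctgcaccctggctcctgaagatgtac
This promoter held 15 CpG, against a median of 7 over all promoters. The letters TGACGTCA, which read the same on both strands, occurred in it and in the promoter of Slc38a6, and in 1.79% of all promoters. The letters CCAAT, on either strand, occurred in it and in 4 other members' promoters (Kif24, Noct, Slco1a6 and Snhg14), and in 37.4% of all promoters. The members' promoters ranged from 1 CpG in Slco1a6 to 26 in Kif24 and Slc38a6. These matches describe letters in a window and nothing more.

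The values that chose the members are given as a description without a test. Levels are CPM (counts scaled per library) with library totals adjusted by TMM, in the order 0824 and 0826. Slc38a6 had 4473 and 4265 CPM in Tet1CD Vc cells at day 8, and 6371 and 3639 CPM in those at day 3. The 20 other reprogramming libraries of Slc38a6 lay between 164 and 1033 CPM, with a median of 220.0. Noct had 3653 and 3519 CPM in Tet1CD Vc cells at day 8, and 4953 and 2892 CPM at day 3, against 177 to 975 CPM in the others (median 223). Both genes thus stood above all other libraries in each of the 4 Tet1CD Vc libraries. Their lowest Tet1CD Vc library stood 3.52 times (Slc38a6) and 2.97 times (Noct) above their highest other library. Among the Tet1CD Vc libraries of day 3, 0824 was higher than 0826 for each of the 9 members.

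Wdr31 had 372 and 304 CPM in Tet1CD Vc cells at day 8, and 591 and 355 CPM at day 3, against 5.67 to 76.7 CPM in the other reprogramming libraries. Kif24 had 164 and 131 CPM in Tet1CD Vc cells at day 8, and 179 and 86.3 CPM at day 3, against 6.44 to 39.0 CPM. Snhg14 had 369 and 320 CPM in Tet1CD Vc cells at day 8, and 485 and 369 CPM at day 3, against 42.2 to 169 CPM. For these genes too the Tet1CD Vc libraries were separate from the rest. Gm14149 had 61.8 and 60.5 CPM in Tet1CD Vc cells at day 8, and 110 and 54.0 CPM at day 3, against 0.779 to 14.8 CPM. Gm13632 had 52.0 and 66.6 CPM in Tet1CD Vc cells at day 8, and 90.8 and 45.4 CPM at day 3, against 0.420 to 10.7 CPM. Slco1a6 had 24.4 and 21.2 CPM in Tet1CD Vc cells at day 8, and 42.2 and 23.1 CPM at day 3, against 0.785 to 4.38 CPM. The low end of the last 3 ranges is near or below the 0.759 CPM that a count of 0 allows in the shallowest library (3 counts).

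Sgip1 differed from the other members by its small span. It had 24.6 and 18.6 CPM in Tet1CD Vc cells at day 8, and 26.8 and 16.7 CPM at day 3, against 1.89 to 10.1 CPM in the other reprogramming libraries, while the ESC library 0819 reached 20.6 CPM. It was thus the only member whose Tet1CD Vc libraries were not all above every other library; for 8 of 9 they were, as for 0.409% of all genes tested. Since the choice of members used these libraries, nothing is read from that count. The ratio of the mean CPM in Tet1CD Vc cells to that in the other reprogramming libraries ran from 3.26 (Sgip1) and 4.29 (Snhg14) to 18.0 (Gm14149) and 18.6 (Gm13632).

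The joint term, which is the effect of Tet1CD over Flag with Vc less that with DMSO, averaged over both days, ran from a log2 value of 1.78 ± 0.34 (SE) for Snhg14 to 4.85 ± 0.44 for Slco1a6. It was larger at day 3 than at day 8 for every member but Slco1a6, for example 2.32 at day 8 and 4.55 at day 3 for Slc38a6, and for Slco1a6 it was 5.15 at day 8 and 4.54 at day 3. With DMSO the log2 difference of Tet1CD from Flag at day 8 was 1.30 for Slc38a6, 1.62 for Wdr31 and 1.70 for Gm14149, and it was −0.82 for Slco1a6 and −0.16 for Sgip1. In Flag cells at day 8 the log2 difference of Vc from DMSO was 0.94 for Slc38a6 and 1.23 for Wdr31, and −1.50 for Slco1a6. Sgip1 had a joint term of 2.14 ± 0.54, next to that of Gm4262, a gene with shared words that is not a member (2.09 ± 0.41). Together the members held 0.743% to 1.30% of all counts in the Tet1CD Vc libraries and 0.0269% to 0.244% in the other 27.

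Per unit length, in TPM (the deposited length-corrected level), the order differed from that in CPM. In the Tet1CD Vc libraries Slc38a6 stood highest, at 1875 to 3248 TPM, then Snhg14 at 891 to 1464 TPM and Noct at 592 to 1005 TPM. The ranges of Snhg14 and Noct overlapped, and Sgip1 was lowest at 16.1 to 23.98 TPM.

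**Figure D2:**
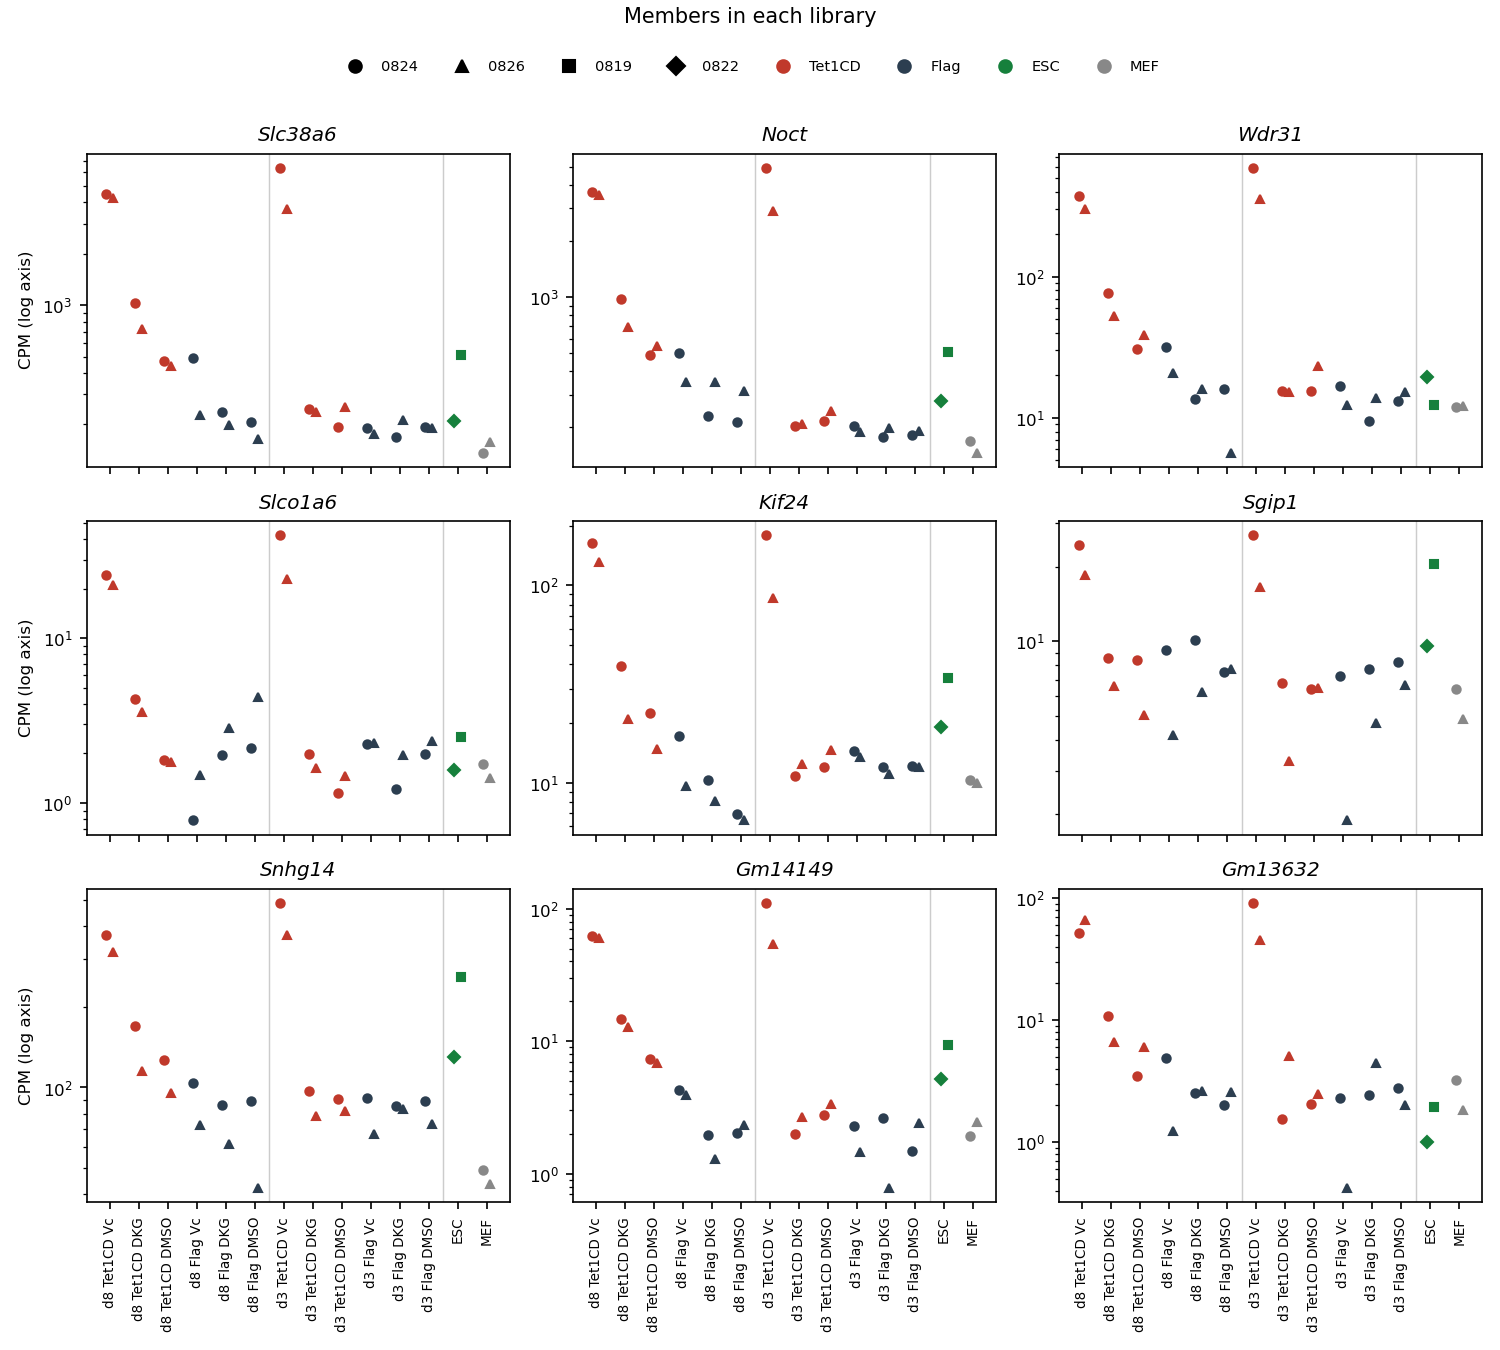
CPM of the 9 members in each library of the reprogramming groups, ESC and MEF (log axis; 1 point per library, shape for the library number, colour for the virus or cell). The 4 Tet1CD Vc libraries stand above the other reprogramming libraries in each panel, and the highest of those others is a Tet1CD DKG library of day 8 in all panels but Slco1a6 and Sgip1.

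The files give for each gene a length that is weighted by the estimated abundance of its transcripts, and so describe which transcript the reads were assigned to. In the Tet1CD Vc libraries Noct stood at 9657 to 9765 bases, next to the 9797 of its carrier transcript, while the other 27 libraries ranged from 4500 to 9701. Kif24 stood at 1189 to 1241 bases in Tet1CD Vc cells, next to the 1151 of Kif24-204, and at 1330 to 5490 in the other libraries, without overlap. Slc38a6 stood at 3917 to 3925 bases in Tet1CD Vc cells, next to the 3927 of Slc38a6-208, and at 3551 to 3910 in the other libraries, also without overlap, though the nearest libraries lay close to it. Kif24 and Slc38a6 thus lay nearer the length of their word-bearing transcript in these 4 libraries than in any other. For Noct the exception was 1 library, Tet1CD DKG 0824 at day 8 (9701), which fell inside their range. How many of all genes separate in this way was not counted, and these libraries had chosen the members. Nothing is thus read from the separation. Snhg14 stood at 703 to 770 bases in Tet1CD Vc cells (Snhg14-201 has 726), inside its range elsewhere of 386 to 1395. Wdr31 was within 100 bases of its carrier transcript of 2128 bases in all 4 Tet1CD Vc libraries and also in most others, Slco1a6 within 100 of 458 bases in all 31, and Gm14149 and Gm13632 have 1 weighted length throughout. Sgip1 stood at 2051 to 2300 bases in Tet1CD Vc cells, within 100 bases of the 2271 of Sgip1-212 in 3 of 4 libraries, and was that close in 18 of the other 27. These lengths were computed from the same reads as the levels and are given without a test.

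**Figure D3:**
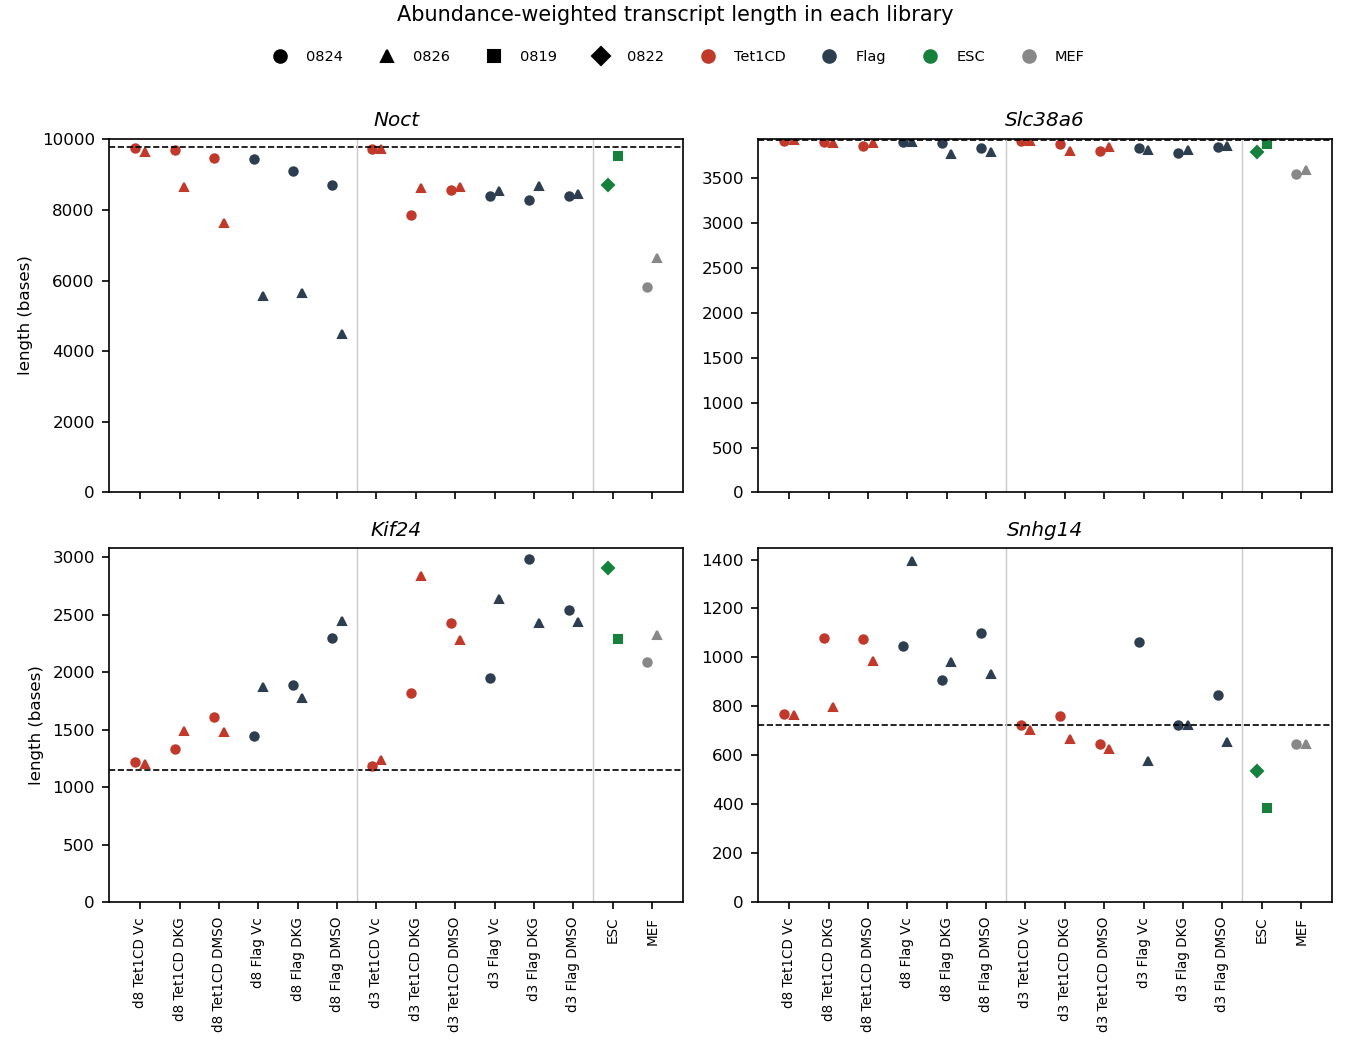
Abundance-weighted transcript length (bases, from 0) of 4 members in each library; the dashed line is the length of the transcript that holds the shared words. Kif24 and Slc38a6 lie nearest the line in the 4 Tet1CD Vc libraries, and Noct varies from 4500 to 9765 bases.

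The count ratio of Slc38a6 to Noct, the pair with the longest shared sequence, lay between 1.212 and 1.286 in the 4 Tet1CD Vc libraries and between 0.523 and 1.205 in the other 27. The members had been chosen for a shared rise. Over the 24 reprogramming libraries Pearson's r of log2(CPM + 1) between 2 members ranged from 0.782 to 0.989 (36 pairs), and over the 20 without Tet1CD Vc from −0.0791 to 0.937 with a median of 0.630. These libraries share reads between members as described, so the correlations are a description.

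DKG libraries had no part in the choice and could be tested. At day 8 with DKG, 8 of the 9 members were higher in both Tet1CD libraries than in both Flag libraries, where 13.3% of all genes were, and Sgip1 was not. Gm14149 had 14.8 and 12.8 CPM in Tet1CD DKG cells, against 1.95 and 1.30 CPM in Flag DKG cells. It was the only member called by edgeR's quasi-likelihood test with Benjamini-Hochberg adjustment over 14914 genes (log2 fold change 3.05 ± 0.46 SE, adjusted p = 0.0172, n = 2 each), where 0.0335% of all genes were called higher. Slc38a6 had 1033 and 722 CPM in Tet1CD DKG cells, against 235 and 199 CPM in Flag DKG cells. Its log2 fold change was 2.02 ± 0.37 and it missed the threshold (adjusted p = 0.0709). Wdr31 had 76.7 and 52.6 CPM in Tet1CD DKG cells, against 13.6 and 16.1 CPM in Flag DKG cells (2.12 ± 0.38, adjusted p = 0.0626). Noct had 975 and 694 CPM in Tet1CD DKG cells, against 231 and 349 CPM in Flag DKG cells (1.52 ± 0.30, adjusted p = 0.0872). Each of these 4 genes was 2.88 to 8.27 times as high in Tet1CD DKG cells, with no overlap of the libraries.

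Kif24 had 39.0 and 20.96 CPM in Tet1CD DKG cells at day 8, against 10.3 and 8.05 CPM in Flag DKG cells (log2 fold change 1.70 ± 0.38, adjusted p = 0.173). Snhg14 had 169 and 116 CPM in Tet1CD DKG cells, against 86.4 and 61.6 CPM in Flag DKG cells (0.94 ± 0.34, adjusted p = 1). Gm13632 had 10.7 and 6.57 CPM in Tet1CD DKG cells, against 2.53 and 2.60 CPM in Flag DKG cells (1.75 ± 0.65, adjusted p = 1). Slco1a6 and Sgip1 differed least, by 0.72 (95% interval −0.17 to 1.60) and −0.12 (−1.25 to 1.01). Germ cell markers summed to 4.33 and 2.82 CPM in these Tet1CD DKG cells, against 0.810 and 0.759 CPM in Flag DKG cells, and pluripotency markers to 108.7 and 37.9 CPM in Tet1CD DKG cells, against 35.5 and 15.8 CPM in Flag DKG cells, both without overlap. Macrophage markers, at 21.9 and 9.45 CPM in Tet1CD DKG cells against 9.75 and 6.07 CPM in Flag DKG cells, overlapped. The part of these markers in the members' values was not tested. The member with the largest joint term, Slco1a6, was among those with the smallest differences here. The numbers 0824 and 0826 paired libraries within a day (correlations of deviations all above 0.1), and with the number as a term within each day 6 members were called, where 1.84% of all genes were called higher. With that term the adjusted p was 0.000150 for Gm14149, 9.3e-05 for Slc38a6, 0.000666 for Wdr31, 0.000863 for Snhg14, 0.00149 for Noct and 0.00235 for Kif24, and it was 0.152 for Gm13632, 0.492 for Slco1a6 and 0.941 for Sgip1. With 1 term for the number over all groups but ESC 6 members were called as well, where 0.334% of all genes were. Both fits with a term for the number left out the ESC libraries and tested 14368 genes. They thus differed from the fit without it by more than the term. DESeq2 called 5 members, where 0.232% of all genes were called higher, and without the filter on low counts edgeR called 4, where 0.0889% were. Without the number, and with any one of the 4 libraries left out, the members' median log2 fold change lay between 1.26 and 2.04. Such a fit leaves 1 library in a group, so it cannot tell whether the calls hold.

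At day 3 with DKG no member was called by edgeR or by DESeq2, and edgeR called 0.00671% of all genes higher. An unadjusted edgeR p under 0.05 was found for 0 of the 9 members and for 168 of all 14914 genes. Slc38a6 had 246 and 236 CPM in Tet1CD DKG cells, against 168 and 212 CPM in Flag DKG cells (log2 fold change 0.34 ± 0.36, 95% interval −0.41 to 1.10). Gm14149 had 1.98 and 2.66 CPM in Tet1CD DKG cells, against 2.65 and 0.779 CPM in Flag DKG cells (0.44 ± 0.51, interval −0.62 to 1.51). The other 7 log2 fold changes lay between −0.30 (Sgip1) and 0.39 (Wdr31). Whether the Tet1CD effect differed between the days was tested directly, a test chosen after seeing the data. Gm14149 differed by 2.61 ± 0.70 between day 8 and day 3 and Slc38a6 by 1.67 ± 0.51. No member passed by edgeR (adjusted p = 1 for each) or by DESeq2. In edgeR 5 of the 9 had an unadjusted p under 0.05, as had 188 of all 14914 genes. With the number as a term within each day the smallest adjusted p was 0.0532, for Slc38a6. Averaged over both days, 0 members were called by edgeR, where 0.0335% of all genes were called higher. An unadjusted p under 0.05 was found there for 6 members and for 409 of all 14914 genes. With the number as a term within each day 6 members were called, where 1.82% of all genes were. With 1 term over all groups but ESC 3 were called, where 0.383% of all genes were. DESeq2 called 3, where 0.235% were, and without the filter 3 were called, where 0.0974% were. The 6 called within days were Slc38a6, Noct, Wdr31, Kif24, Snhg14 and Gm14149.

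**Figure D4:**
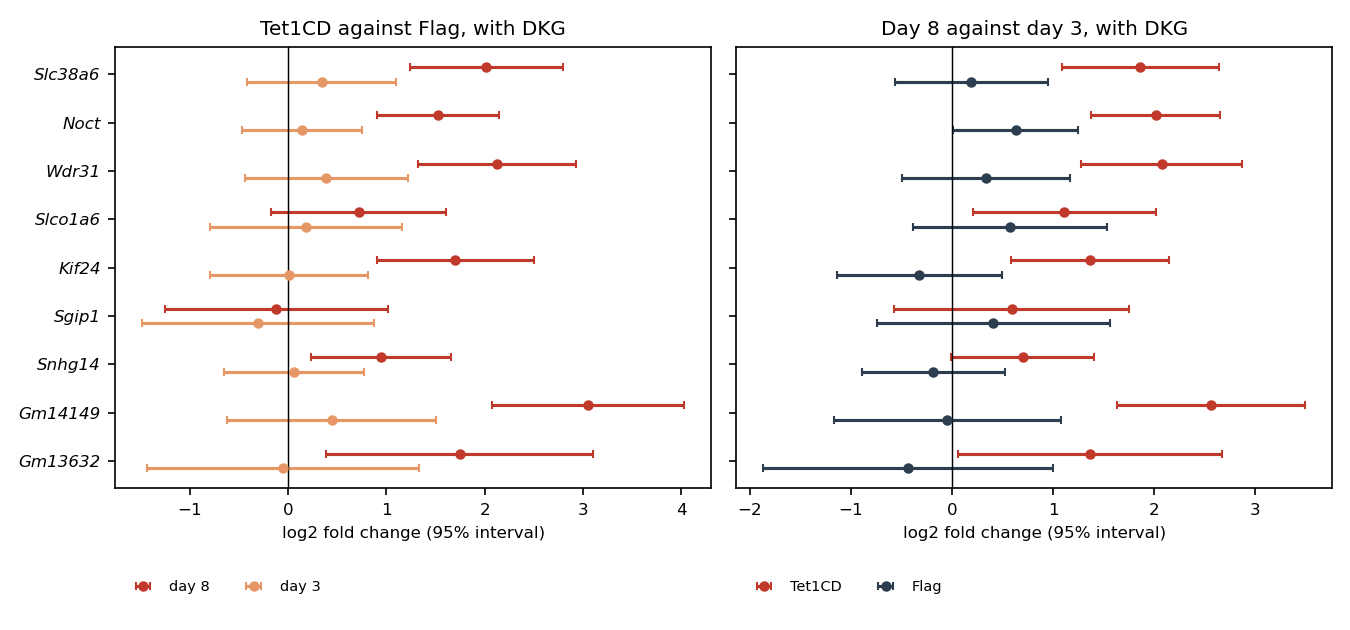
Log2 fold changes with 95% intervals (edgeR, n = 2 libraries a group) for the 9 members with DKG: Tet1CD against Flag at day 8 and day 3 on the left, day 8 against day 3 in Tet1CD and Flag cells on the right. At day 8 the point for Gm14149 lies at 3.05, and that for Sgip1 at −0.12.

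Within Tet1CD DKG cells 3 members were higher at day 8 than at day 3, where 0.0536% of all genes were higher and 0.0201% lower. Noct had 975 and 694 CPM at day 8, against 204 and 209 CPM at day 3 (log2 fold change 2.01 ± 0.30, adjusted p = 0.0114). Gm14149 rose by 2.56 ± 0.44 (adjusted p = 0.0391) and Wdr31 by 2.07 ± 0.38 (adjusted p = 0.0489), both by edgeR, and Wdr31 did not pass with upper-quartile scaling (adjusted p = 0.0516). Slc38a6 (1.86 ± 0.37, adjusted p = 0.0750) and Kif24 (1.37 ± 0.37, adjusted p = 0.217) did not pass. With the number as 1 term 6 members were called, where 2.36% of all genes were called higher, and with the term within each day 6, where 5.51% were. With any one of the 4 libraries left out, the members' median log2 fold change lay between 0.97 and 1.84. Such a fit leaves 1 library in a group, so it cannot tell whether the calls hold. Within Flag DKG cells no member was called by edgeR or by DESeq2, while edgeR called 0.0939% of all genes higher and 0.0738% lower. In that edgeR comparison 1 of the 9 members had an unadjusted p under 0.05, as had 1464 of all 14914 genes. There Noct had 231 and 349 CPM at day 8, against 177 and 198 CPM at day 3 (0.63 ± 0.29, adjusted p = 0.493), and Gm14149 had 1.95 and 1.30 CPM at day 8, against 2.65 and 0.779 CPM at day 3. In bulk RNA, more cells that express a gene and more RNA per cell cannot be told apart, here or in any comparison above or below.

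Between ESC and MEF, 6 members were higher in ESC (edgeR), where 26.8% of all genes were higher and 25.7% lower. Snhg14 had 257 and 130 CPM in the ESC libraries 0819 and 0822, against 49.2 and 43.7 CPM in MEF (log2 fold change 2.06 ± 0.35, adjusted p = 0.000143). Gm14149 had 9.33 and 5.17 CPM in ESC, against 1.93 and 2.44 CPM in MEF (1.72 ± 0.45, adjusted p = 0.00444). Kif24 had 33.8 and 19.07 CPM in ESC, against 10.3 and 9.95 CPM in MEF (1.38 ± 0.38, adjusted p = 0.00554). The library 0819 was the higher one for each of these genes. Noct had 505 and 276 CPM in ESC, against 169 and 147 CPM in MEF (1.31 ± 0.30, adjusted p = 0.00154), Slc38a6 rose by 1.28 ± 0.36 (adjusted p = 0.00725) and Sgip1 by 1.41 ± 0.55 (adjusted p = 0.0378). Wdr31 (0.39 ± 0.39), Slco1a6 (0.39 ± 0.46) and Gm13632 (−0.76 ± 0.74) did not pass. Gm13632, at 1.95 and 0.994 CPM in ESC against 3.22 and 1.83 CPM in MEF, was thus among the largest ratios with Tet1CD and Vc and not higher in ESC.

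The ESC libraries differed in fibroblast markers (Col1a1, Col1a2, Thy1, Postn, Pdgfra and Twist2), which summed to 51.6 CPM in 0819 and 8011 CPM in 0822, against 21520 and 22740 CPM in MEF. The part of these markers in the members' values was not tested. Without ESC 0819 the members' median log2 fold change was 0.75 in place of 1.31, and without ESC 0822 it was 1.72. In Flag cells with DKG at day 3 no member differed from MEF by edgeR or by DESeq2. There edgeR called 14.4% of all genes higher and 13.2% lower. An unadjusted edgeR p under 0.05 was found for 1 of the 9 members and for 5925 of all 14914 genes. Snhg14 was nearest, at 85.2 and 83.1 CPM in those cells, against 49.2 and 43.7 CPM in MEF (0.86 ± 0.34, adjusted p = 0.0697). Snhg14 alone was called with the replicate number as 1 term, where 22.1% of all genes were called higher. The fit with the number as a term within each day cannot decide this, since a single MEF library then set the MEF level.

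Besides the members, 32 genes of the annotation held at least 1 of the 325 words, and 28 of them passed the filter. In 9 of the 28 all 4 Tet1CD Vc libraries lay above the 20 other reprogramming libraries, where 0.811% of all genes tested did. The members were drawn from the same kind of gene by these libraries, so this is a description. Among the 9, Gm37375 and Gm37385 had the same mean and range (43.2 to 97.3 CPM in Tet1CD Vc cells, against 0 to 22.4 CPM). They may thus not be separate signals. Carriers hold words identical to those of members, so their reads cannot be assigned to 1 gene with certainty either. Ranked by their mean in the Tet1CD Vc libraries, an order that favours genes high there, the first carrier was Gm37371, which had 147 to 569 CPM in Tet1CD Vc cells, against 0 to 40.7 CPM in the other reprogramming libraries. Next came Gm37758, with 245 to 398 CPM in Tet1CD Vc cells, against 7.73 to 76.9 CPM. Both stood apart without overlap, and Gm37758 and A430078G23Rik passed the adjusted threshold in the joint term (edgeR), as 0.148% of all genes did. The carriers next in that order, which had the higher means in the other reprogramming libraries, overlapped between the groups. Prnp, the prion protein gene, had 144 to 263 CPM in Tet1CD Vc cells, against 192 to 369 CPM. Abhd2, a lipase of the abhydrolase family, had 135 to 232 CPM in Tet1CD Vc cells, against 86.7 to 279 CPM. Zfp706, a zinc finger gene, had 172 to 198 CPM in Tet1CD Vc cells, against 159 to 228 CPM. With DKG at day 8, 0 of the 28 carriers were called in either direction and their median log2 difference of Tet1CD from Flag was 0.15, against −0.01 over all genes. The median of the 9 members in that comparison was 1.70. A word of the shared sequence was present in genes with and without the pattern.

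**Figure D5:**
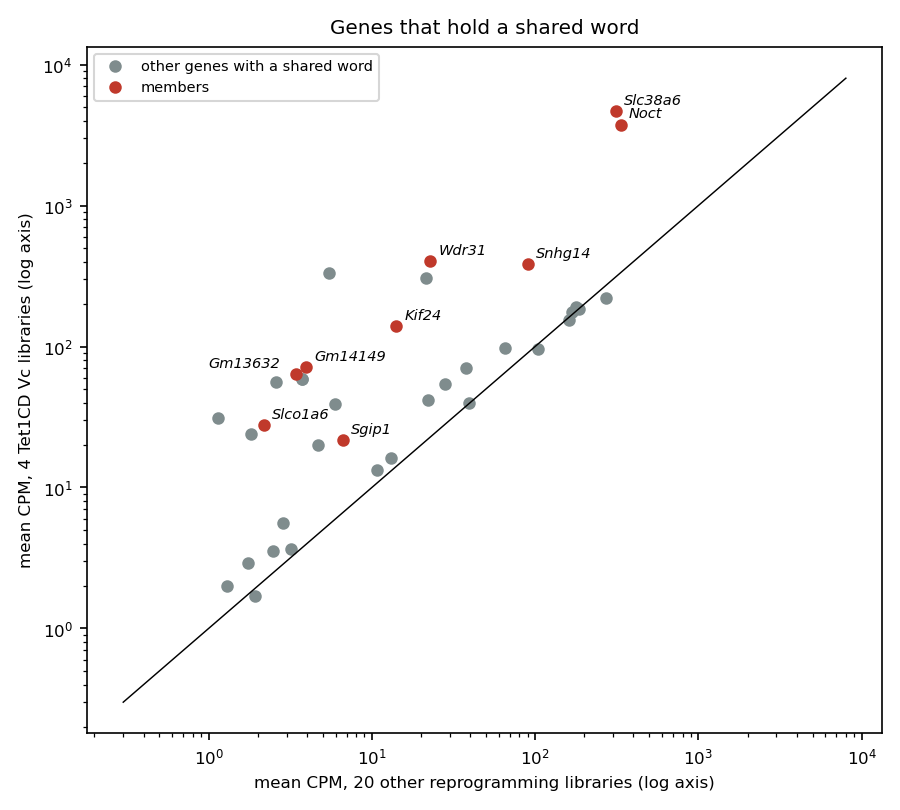
Mean CPM in the 4 Tet1CD Vc libraries against the mean in the 20 other reprogramming libraries (both log axes) for the members (red, named) and the 28 other tested genes with a shared word (grey); the line marks equal means. All members lie above the line, while the grey points divide into some beside the members and others on the line.

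Of the 18 nearest tested genes, 1 on each side of each member, 1 passed in the joint term: Gm38246, 119277 bases before Noct, with 9.75 to 38.7 CPM in Tet1CD Vc cells, against 0.561 to 2.29 CPM in the other reprogramming libraries. It does not hold the words. Rnf183, a ubiquitin ligase gene 13401 bases before Wdr31, also had its Tet1CD Vc libraries (2.79 to 4.86 CPM) above the other reprogramming libraries (0.191 to 2.08 CPM), with a joint term of 2.53 ± 0.78 that did not pass. Elf2, a transcription factor gene 1076 bases after Noct, and Trmt5, a tRNA methyltransferase gene 69 bases before Slc38a6, were not called there. With DKG at day 8, 0 of the 18 were called, with a median log2 difference of −0.06. Of 40 family relatives of the members (transporters of the Slc38 and Slco families, CCR4-type deadenylases, kinesins, Fcho genes and neighbours of the imprinted region), 31 were tested and 0 were called in the joint term or with DKG at day 8, with medians of −0.02 and −0.00. Between ESC and MEF 9 of the 31 rose and 6 fell. Snrpn, an imprinted splicing protein gene 6736 bases from Snhg14, was among those that rose (1.503 ± 0.289, adjusted p = 0.000417), as Snhg14 did.

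Genes that keep repeats silent were also read. Of 26 listed, 25 were tested. In the comparisons with DKG 0 were called between Tet1CD and Flag on either day, and the median log2 difference was 0.19 at day 8 and −0.06 at day 3. Between ESC and MEF 19 rose and 2 fell, with a median of 1.33 against 0.00 over all genes. The largest rises were in Dnmt3l, a cofactor of de novo DNA methylation (7.13 ± 1.55, adjusted p = 0.00125), Dnmt3b, a de novo DNA methyltransferase (5.98 ± 0.83, adjusted p = 2.18e-05), Hells, a chromatin remodeller (3.30 ± 0.19, adjusted p = 4.21e-09), and Uhrf1, which guides maintenance methylation (2.99 ± 0.23, adjusted p = 6.03e-08). In ESC 6 members and most of these genes were higher than in MEF, as were 26.8% of all genes (edgeR). A link between the 2 was not tested.

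The tested genes outside the list whose log2(CPM + 1) followed the members' mean most closely over the 24 reprogramming libraries were Gm38194 (Pearson's r = 0.994), Rab3gap1 (0.994), Gm29084 (0.989), Cep112it (0.989) and Gm38279 (0.988). Gm38194 had 2836 to 5150 CPM in Tet1CD Vc cells and at most 639 CPM in the other reprogramming libraries, and Rab3gap1 had 890 to 1466 CPM in Tet1CD Vc cells and at most 272 CPM in those others. None of the 5 held the words. The measure rests on the 4 high libraries, which all these genes share.

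Totals ranged from 3953297 to 6818060 counts per library. Tet1, the gene of the virus by its name, had 184 to 687 CPM in the 12 Tet1CD libraries and 4.38 to 32.6 CPM in the 12 Flag libraries. With Vc it had 184 to 473 CPM in Tet1CD cells, with DKG 299 to 687 CPM and with DMSO 327 to 673 CPM. The part of the Tet1 level in the members' values was not tested. Germ cell markers (Dazl, Ddx4, Mael, Tex19.1, Sycp3 and Dppa3) summed to 13.2 to 27.0 CPM in the Tet1CD Vc libraries and to 0 to 5.74 CPM in the other reprogramming libraries, where 1 of the 6 was at 0 throughout. Macrophage markers summed to 14.7 to 841 CPM in the Tet1CD Vc libraries and to 6.07 to 30.1 CPM in the others. The summed pluripotency markers were 1.89 to 221 CPM in the Tet1CD Vc libraries and 2.06 to 185 CPM in the others, against 2267 to 3260 CPM in ESC. Fibroblast markers summed to 1527 to 3349 CPM in the Tet1CD Vc libraries and 1661 to 4946 CPM in the others, endothelial markers to 76.9 to 87.3 CPM in the Tet1CD Vc libraries and 73.1 to 123 CPM in the others, and keratinocyte markers to 61.3 to 87.3 CPM in the Tet1CD Vc libraries and 13.96 to 345 CPM in the others. The part of these markers in the members' values was not tested.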

How the data were processed

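Total RNA (1 ug a library) was turned into sequencing libraries by a TruSeq RNA kit, per the labels' protocols. Bowtie, RSEM and mm10 are named in the submitters' processing notes; their versions, the annotation release and any trimming are not stated there. The deposited RSEM tables hold, per the file headers, for every gene its expected count, TPM, FPKM and abundance-weighted transcript length; a read that fits more than one gene is split by RSEM's model. FPKM as deposited was not used, and the deposited TPM only for levels. Of 29267 identifiers, 28756 matched GENCODE mouse release 21, which gave symbols, coordinates and transcripts; the other 511 held at most 0.392% of a library's counts.

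Expected counts were rounded to whole numbers and tested with edgeR 4.0.16 (limma 3.58.1, R 4.3.3; quasi-likelihood, TMM, filterByExpr, 14914 genes) in 1 fit of 28 libraries with 1 mean per group and no replicate term, two-sided, with Benjamini-Hochberg adjustment and a threshold of 0.05. Adjusted p-values in the text come from this fit unless a replicate term or DESeq2 1.42.0 is named. The fit was tested on simulated data. The SE was derived as |log2 fold change| divided by the root of the F statistic. The 3 single MEF libraries entered no test. Fits with a replicate term also left out the ESC libraries and tested 14368 genes. Replicate numbers were checked by correlating deviations from group means: within a day r was 0.345 to 0.687 (15 pairs of groups each at day 3 and day 8 and never under 0.1), across days −0.00838 to 0.178 and with MEF −0.0101 to 0.305. All pairs of groups within a day stood above 0.1, while pairs across days or with MEF lay on both sides of it. The numbers are thus taken to pair libraries within a day, and a weaker pairing elsewhere cannot be told. The title of one single MEF library says 2DG where its treatment field says DKG, and the ESC files carry the numbers 0819 and 0822 the other way round from the titles, which are used here.

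Words were exact 50-base matches on either strand between transcript sequences, kept where at least 3 members held them, a number chosen after 2 to 5 had been looked at. Of 84205 transcripts in the files 98.0% had a sequence; promoters come from RefSeq (GRCm38.p6). Members and gene lists were chosen with earlier results of these data known. Named genes are the members, the 5 highest carriers, the nearest tested neighbours, listed relatives and silencing factors (at most 4 examples), and the 5 most alike genes. A430078G23Rik, Gm4262, Gm37375 and Gm37385 were named after their values were seen. Alternatives were DESeq2, no filter, upper-quartile scaling, replicate terms, leaving out each library, and other word lengths. At these depths 3 counts, the limit that a count of 0 allows, stand for at most 0.759 CPM, for counting error only.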

Additional observations from a re-analysis of the deposited data

How the results depend on the processing

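With the replicate block (one term for 0824 and 0826 over MEF and reprogramming libraries), 6 members were called for Tet1CD against Flag with DKG at day 8 in place of 1, 3 for the mean of both days in place of 0, 6 for Tet1CD DKG cells at day 8 against day 3 in place of 3, and 1 for Flag DKG cells at day 3 against MEF in place of 0 (Snhg14). With the term within each day the first 3 of these counts were 6, 6 and 6. The last is not given, since MEF 0824 alone then set the MEF level. Both fits left out the ESC libraries. Neither term changed the count of another tested comparison. The numbers did not clearly pair libraries across days or with MEF. The comparison of days in Tet1CD DKG cells and that with MEF would need such pairs. With the term within each day the days were compared at the fitted level of 0824, not as group means. DESeq2 called 5 members at day 8 and 3 for the mean of both days, and without a filter on low counts 4 and 3 were called. With 1 library left out, the members' median log2 fold change lay between 1.26 and 2.04 for Tet1CD against Flag with DKG at day 8. It lay between 0.97 and 1.84 for Tet1CD DKG cells at day 8 against day 3, and between 0.75 and 1.72 for ESC against MEF. The members' median joint term was 3.32 (log2) and lay between 3.10 and 3.49 with 1 library left out. The other genes with shared words numbered 32; words of 30 bases gave 49, words of 75 bases 6, matches on the same strand only 1, and words in at least 4 or 5 members 4 each. Upper-quartile scaling left 2 members called in place of 3 for Tet1CD DKG cells at day 8 against day 3 (Wdr31 did not pass) and changed no other count. No member's called direction was reversed under any alternative run. The cause of these changes was not tested, except that leaving out a library leaves 1 in its group, assumed to vary like the others. Depth limits Slco1a6, Gm14149, Gm13632 and Sgip1 most, with means of 2.17 to 6.65 CPM in the reprogramming libraries outside Tet1CD Vc.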

Other observations

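The single libraries of MEF kept for 3 days were in no comparison. Slc38a6 had 135 CPM with Vc, 161 CPM in the library whose labels name DKG and 2DG, and 167 CPM with DMSO. Noct had 126, 153 and 172 CPM in the same libraries and Snhg14 22.4, 44.1 and 51.7 CPM. Gm14149 had 2.70, 1.13 and 2.32 CPM and Gm13632 1.89, 0.283 and 0.968 CPM. None of these values was above the range of the reprogramming libraries without both Tet1CD and Vc. Some lay below it, among them all those of Noct, whose range there began at 177 CPM, while those of Gm14149 lay within it.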
